A study of Rattus norvegicus with 6 samples.

Results

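The genes described here handle fatty acids: Lpl, Angptl4, Cd36, Fabp4 and Fabp5 act in their release, uptake and binding, Acsl4 in their activation, Cpt1a in their entry into mitochondria, and Plin2, Pnpla2 and Lipe in the lipid droplet. They were taken by symbol, whatever their level, from deposited gene tables of cells of the nucleus pulposus, the gelatinous core of the intervertebral disc, of Sprague Dawley rats. All 10 symbols were found among 22573 usable rows. The tables hold FPKM, fragment numbers scaled by transcript length and library size, 1 value per gene and library. The stretched group (labelled cyclic tensile strain, 3 libraries) was subjected for 24 h to cyclic elongation of 18% at 0.2 Hz on a Flexcell FX-5000T device. The control group (labelled Control, 3 libraries) carries the same treatment text, so its cells were taken as unstretched from their class label. No label gives the age or sex of the rats, the culture passage, or the origin of the replicates (separate animals, separate cultures), so p-values measure the spread between these libraries, which may be technical.

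As background, lipoprotein lipase frees fatty acids from circulating triglyceride, CD36 and the binding proteins bring them into and through the cell, and acyl-CoA synthetases trap them as acyl-CoA. The acyl-CoA is then stored in droplets as triglyceride, built into membranes, or passed to mitochondria through the carnitine shuttle. The nucleus pulposus has no blood vessels of its own, and its cells are known for relying mainly on glycolysis.

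The libraries fell apart by group. On log2 values, correlations across genes were 0.983 to 0.992 within the stretched group, 0.988 to 0.991 within the control group and 0.921 to 0.960 between them. On the first principal component stretched replicate 1 lay nearest to the controls, and on the next one stretched replicate 3 stood apart from the other stretched libraries (17.5, against -9.70 and -10.8). Of 20 nucleus pulposus markers in the files, 13 passed a filter at a mean of 1 FPKM, among them Acan, Pax1, Foxf1 and Krt8. Of the 7 under it, Shh and Noto were listed at 0 in every library, and T, Krt18 and Krt19 stayed under 0.14 FPKM. Col2a1 averaged 0.898 FPKM in stretched cells and 0.042 FPKM in control cells, and Car12 0.338 and 0.434 FPKM. Of the 13 markers, 8 rose in stretched cells and 1, Cdh2, fell by the rule given below, and 4, Acan among them, were not called. These are 61.5% and 7.69%, beside 16.4% higher and 19% lower of all tested genes. The summed level of the list was 12209 to 14566 FPKM in stretched libraries and 5439 to 5831 FPKM in control libraries, most of it Mgp. In bulk RNA, fewer cells of a type and less RNA per cell cannot be told apart.

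Of the 10 genes, 2 rose in stretched cells (Angptl4 and Lpl) and 5 fell (Fabp4, Fabp5, Acsl4, Cpt1a and Plin2). Pnpla2 was tested and not called, and Cd36 and Lipe lay under the filter. Calls are from limma on log2(FPKM + 1) over 10180 genes, at a Benjamini-Hochberg adjusted p under 0.05. The same rule called 35.4% of all tested genes, 16.4% higher and 19% lower. That split depends on library scaling: as deposited 1672 genes were higher and 1936 lower, and after each library was rescaled to the same total 2067 were higher and 1537 lower. The 7 calls kept their direction and their side of the threshold under each alternative in which the gene was tested, leaving out each library in turn included. The groups did not overlap for any of the 8 tested genes, Pnpla2 included, and did not overlap for 51.9% of all tested genes. Of the genes under the filter, they did not overlap for Lipe and overlapped for Cd36.

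**Figure D1:**
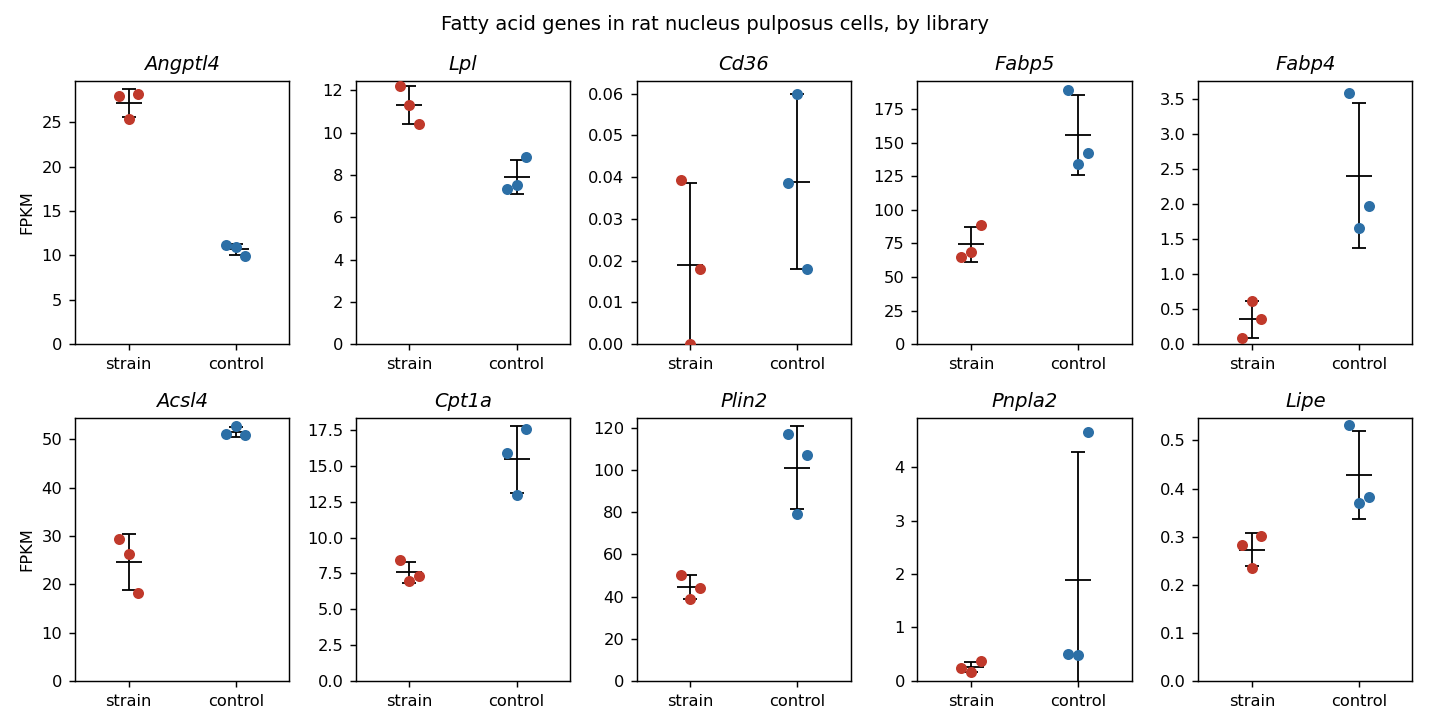
FPKM of each of the 10 genes in the 3 stretched libraries (labelled strain, red, left) and the 3 control libraries (blue, right), each panel on its own linear axis from 0, with the mean as a bar and error bars of 1 SD, cut at 0 for Pnpla2. Angptl4 and Lpl are higher in every stretched library, Fabp5, Fabp4, Acsl4, Cpt1a and Plin2 are lower in every stretched library, and a single control library sets the mean of Pnpla2.

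Angptl4 encodes a secreted protein that inactivates lipoprotein lipase. It stood at 28.0, 25.4 and 28.1 FPKM in stretched libraries and at 11.2, 10.9 and 9.97 FPKM in control libraries. Every stretched library lay far above every control, and each group kept within a narrow range. The means were 27.2 ± 1.54 FPKM in stretched cells and 10.7 ± 0.629 FPKM in control cells (SD, n = 3 each), a 2.54-fold rise with a log2 fold change of 1.27 ± 0.09 SE (limma adjusted p = 3.71e-05). Only 87 tested genes had a larger log2 rise. 

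Lpl, the gene of the lipase itself, rose with Angptl4 but by less. It was at 12.2, 11.3 and 10.4 FPKM in stretched libraries and at 7.35, 7.55 and 8.85 FPKM in control libraries. The groups lay close to each other without touching. The means of 11.3 ± 0.892 FPKM in stretched cells and 7.92 ± 0.813 FPKM in control cells (SD, n = 3 each) gave a 1.43-fold rise, a log2 fold change of 0.47 ± 0.10 SE (limma adjusted p = 0.0086). Without control replicate 1 the adjusted p was 0.0424, the nearest to the threshold that any of the 7 genes came. The ratio of Angptl4 to Lpl FPKM, a quantity chosen after the values were seen, was 2.30, 2.25 and 2.70 in stretched libraries and 1.52, 1.45 and 1.13 in control libraries. Angptl4 RNA was thus above Lpl RNA in every library, and by a larger ratio in each stretched one. Protein and lipase activity were not measured. Gpihbp1, which anchors the lipase to endothelium, was listed at 0 in every library.

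Cd36, the membrane receptor and transporter of long-chain fatty acids, was hardly detected: 0.039, 0 and 0.018 FPKM in stretched libraries and 0.039, 0.060 and 0.018 FPKM in control libraries. The groups overlapped, and no change could be read at this level. RefSeq lists further Cd36-like rat genes (Cd36l1 and Cd36-ps1), and the sources used here do not say how reads shared between copies were counted.

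The binding proteins Fabp5 and Fabp4, which carry fatty acids inside the cell, both fell. Fabp5 was the most abundant of the 10 genes in either group, at 65.0, 69.0 and 88.8 FPKM in stretched libraries and 189, 134 and 142 FPKM in control libraries. The means were 74.3 ± 12.8 FPKM in stretched cells and 155 ± 29.7 FPKM in control cells (SD, n = 3 each). This is a 2.09-fold fall with a log2 fold change of -1.05 ± 0.16 SE (limma adjusted p = 0.0012). Control replicate 1 was the highest library, and the log2 fold change without it was still -0.90. RefSeq lists Fabp5 pseudogenes in the rat, so some reads could be shared.

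Fabp4, the binding protein best known from fat cells and macrophages, was far scarcer. It had 0.086, 0.618 and 0.362 FPKM in stretched libraries, all under 1, and 3.59, 1.66 and 1.98 FPKM in control libraries, all above 1. Its log2 fold change was -1.31 ± 0.22 SE (limma adjusted p = 0.0021), and -2.59 with a pseudocount of 0.1, since a pseudocount of 1 understates changes at such levels. Fabp4 passed the filter only through the control group, where it was high.

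Most other fat cell markers were at or near 0. Of 15 adipocyte markers fixed, Adipoq, Retn, Pck1 and Thrsp were listed at 0 in every library, Lep and Plin1 stayed under 0.1 FPKM, and Fabp4 was the only one above the filter. Their summed level was 1.43 to 2.03 FPKM in stretched libraries and 3.54 to 5.85 FPKM in control libraries, most of it from Fabp4, Cidea and Lipe. Of 20 macrophage and leukocyte markers, 4 passed the filter, Cd68 and Lyz2 only through the group where each was high: Cd68 fell (0.633 ± 0.147 FPKM in stretched cells and 1.53 ± 0.424 FPKM in control cells), Adgre1 fell (1.31 ± 0.10 FPKM in stretched cells and 3.71 ± 1.92 FPKM in control cells), Lyz2 rose (3.30 ± 1.62 FPKM in stretched cells and 0.249 ± 0.142 FPKM in control cells), and Cd14 was not called (15.8 ± 0.295 FPKM in stretched cells and 14.5 ± 1.26 FPKM in control cells; SD, n = 3 each). The call of Adgre1 was lost without any 1 library other than control replicate 2 (limma adjusted p = 0.0643 to 0.0931). Ptprc stayed under 0.05 FPKM, and Cd163, C1qa, C1qb, Marco and Cd3e were listed at 0 in every library. The summed level of that list was 21.3 to 24.6 FPKM in stretched libraries and 17.9 to 25.1 FPKM in control libraries, most of it Cd14, and its part in the fall of Fabp4 was not tested. Of 14 endothelial markers 1 passed the filter and was not called, with a summed level of 4.56 to 5.87 FPKM in stretched libraries and 5.26 to 6.19 FPKM in control libraries. Of 14 muscle markers 2 passed it and were not called, with a summed level of 4.67 to 9.84 FPKM in stretched libraries and 4.82 to 7.23 FPKM in control libraries.

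Acsl4 encodes an acyl-CoA synthetase that prefers arachidonic acid and other polyunsaturated fatty acids, and is known for sensitising cells to ferroptosis. It had 29.3, 26.3 and 18.2 FPKM in stretched libraries and 51.1, 52.8 and 50.9 FPKM in control libraries. The controls were nearly equal, the stretched libraries spread more widely, and all of them lay well under the controls. The means of 24.6 ± 5.72 FPKM in stretched cells and 51.6 ± 1.04 FPKM in control cells (SD, n = 3 each) correspond to a 2.10-fold fall (log2 fold change -1.06 ± 0.15 SE, limma adjusted p = 0.0010). Stretched replicate 3, the library that stood apart, was the lowest, and without it the log2 fold change was -0.87.

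Cpt1a encodes the carnitine palmitoyltransferase of the outer mitochondrial membrane, the regulated gate of fatty acid oxidation. Stretched libraries had 8.42, 7.0 and 7.32 FPKM, and control libraries had 15.9, 13.0 and 17.6 FPKM. Every stretched library was well below every control. The means were 7.58 ± 0.745 FPKM in stretched cells and 15.5 ± 2.34 FPKM in control cells (SD, n = 3 each), a 2.04-fold fall (log2 fold change -0.93 ± 0.12 SE, limma adjusted p = 0.00065).

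Plin2, which coats lipid droplets in most cell types and whose protein is stabilised by them, was the second most abundant of the 10 genes. It stood at 50.1, 38.8 and 44.3 FPKM in stretched libraries and at 117, 79.2 and 107 FPKM in control libraries. Again no stretched library reached a control. The means of 44.4 ± 5.65 FPKM in stretched cells and 101 ± 19.6 FPKM in control cells (SD, n = 3 each) gave a 2.28-fold fall (log2 fold change -1.16 ± 0.15 SE, limma adjusted p = 0.00065).

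Pnpla2 and Lipe encode the lipases that open droplet triglyceride, adipose triglyceride lipase and hormone-sensitive lipase, and both were scarce. Pnpla2 had 0.244, 0.176 and 0.369 FPKM in stretched libraries and 0.494, 0.493 and 4.66 FPKM in control libraries. Control replicate 3 was 9.44 times the next control and set the control mean, so that Pnpla2 passed the filter through that library alone. A library at least 5 times above the next of the 6 was found in 11 of 10180 tested genes, 3 of them with control replicate 3 on top. Although the groups did not overlap, Pnpla2 was not called (log2 fold change -0.89 ± 0.53 SE, 95% interval -2.20 to 0.42, limma adjusted p = 0.25), and without control replicate 3 its log2 fold change was -0.24 (limma adjusted p = 0.198).

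Lipe had 0.283, 0.235 and 0.300 FPKM in stretched libraries and 0.532, 0.369 and 0.383 FPKM in control libraries. The stretched libraries were all lower, at levels where FPKM rest on few fragments. In the fit without a filter, Lipe did not pass (log2 fold change -0.16 ± 0.06 SE, limma adjusted p = 0.0998).

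**Figure D2:**
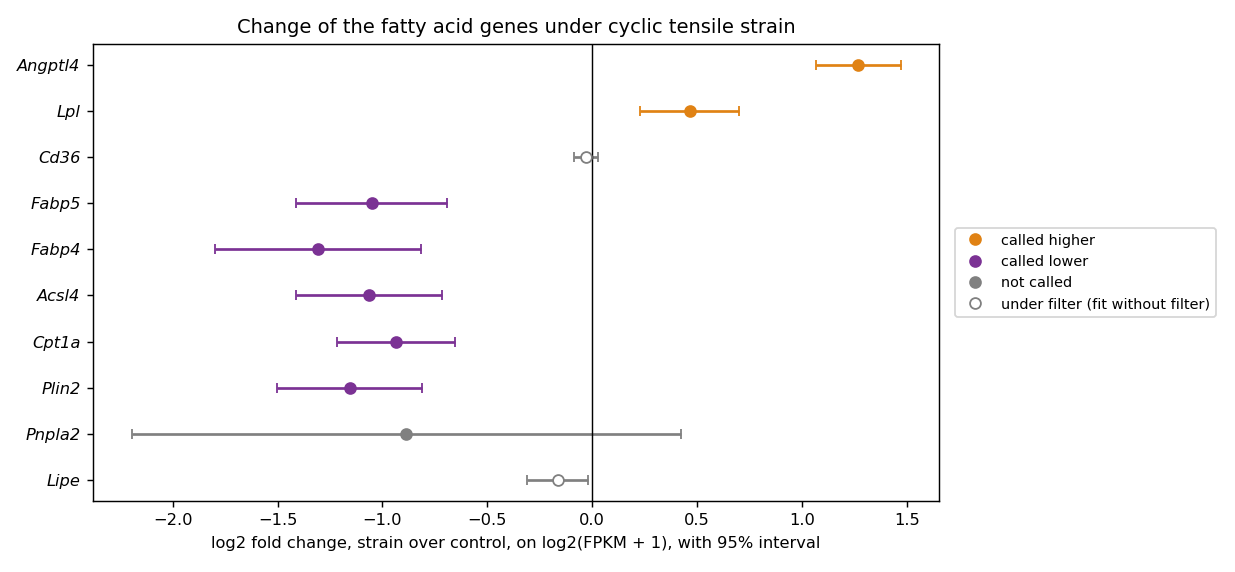
Log2 fold change of each of the 10 genes on the log2(FPKM + 1) scale, stretched (strain) over control, with 95% intervals from limma. Orange marks genes called higher and purple genes called lower, grey marks genes not called, and open points are the 2 genes under the filter, from the fit without one. The 5 falls lie between -1.31 and -0.93, and the interval of Pnpla2 runs from -2.20 to 0.42.

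FPKM are scaled by length, so levels can be set beside each other. In stretched cells the order was Fabp5, Plin2, Angptl4, Acsl4, Lpl and Cpt1a, followed by Fabp4, Lipe, Pnpla2 and Cd36, all 4 of which averaged under 1 FPKM. In control cells it was Fabp5, Plin2, Acsl4, Cpt1a, Angptl4 and Lpl, then Fabp4, Pnpla2, Lipe and Cd36. Angptl4 thus stood above both Acsl4 and Cpt1a in stretched cells and below both in control cells, although its range overlapped that of Acsl4 in stretched libraries. In stretched cells the ranges of Fabp4 and Lipe and of Lipe and Pnpla2 overlapped, and in control cells those of Fabp4 and Pnpla2 and of Pnpla2 and Lipe. All other neighbours in either order were separated by their ranges. The 10 genes summed to 194, 179 and 198 FPKM in stretched libraries and to 397, 300.4 and 344 FPKM in control libraries, without overlap, most of it Fabp5 and Plin2.

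Promoter windows from RefSeq (build GRCr8, 250 bases before to 50 bases after a gene's start) were matched for 6 of the 10 genes: Acsl4, Angptl4, Cd36, Cpt1a, Plin2 and Pnpla2. Fabp4, Fabp5, Lipe and Lpl had no entry. The windows of Angptl4, the gene with the largest rise, and of Plin2, the abundant droplet gene that fell, are printed 5′ to 3′ with matches to the searched motifs in capitals. Angptl4 is at chr7:15258632-15258931 on the minus strand. Plin2 has a pair of windows in the table, and the one at chr5:106228969-106229268 on the minus strand is printed.
Angptl4: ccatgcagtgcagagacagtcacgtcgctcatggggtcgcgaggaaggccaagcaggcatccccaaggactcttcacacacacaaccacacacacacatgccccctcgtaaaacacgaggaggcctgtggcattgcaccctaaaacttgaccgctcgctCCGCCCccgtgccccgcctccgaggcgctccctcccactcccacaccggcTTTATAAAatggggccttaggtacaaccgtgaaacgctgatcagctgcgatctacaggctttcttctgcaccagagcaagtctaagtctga
Plin2: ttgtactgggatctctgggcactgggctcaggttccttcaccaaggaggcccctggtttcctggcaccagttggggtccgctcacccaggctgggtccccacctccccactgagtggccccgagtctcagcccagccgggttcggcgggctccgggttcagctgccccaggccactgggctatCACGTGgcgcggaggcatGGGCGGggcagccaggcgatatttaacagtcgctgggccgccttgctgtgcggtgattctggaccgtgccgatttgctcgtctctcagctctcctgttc

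Both strands were searched for the E-box CACGTG that CLOCK and BMAL1 bind, the DR1 element that PPAR receptors bind with RXR (a pair of AGGTCA half-sites with any 1 base between them), the TATA box TATAAA, the AP-1 element TGANTCA, the cAMP response element TGACGTCA and the GC box GGGCGG. The printed Plin2 window holds an E-box whose first base lies at -67 from the start, and a GC box at -49. Of the 7 windows of the 6 genes, the printed Plin2 window alone had an E-box, which 6.42% of 33469 rat windows of this length contain. The other Plin2 window held no match to any searched motif. Angptl4 holds a TATA box at -39 that overlaps a match on the other strand at -41, and a GC box at -91. TATAAA occurs in 14.2% of all windows and also in that of Cd36, and the GC box in 33.1% of all windows and in those of Acsl4, Angptl4, Plin2 and Pnpla2, the pair of matches in Acsl4 overlapping each other. No window of the 6 genes held the DR1, AP-1 or cAMP response element, which occur in 0.0538%, 7.33% and 1.83% of all windows. Exact DR1 letters are so rare that their absence from 7 windows says nothing about PPAR sites. Sequence outside the windows was not searched. These are matches of letters and do not show binding.

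The relatives of these genes showed which members of each family moved. They include Fabp3, Plin3, Cpt1c and Acsl5, named after their values were seen. Fabp3, the heart-type binding protein, fell like Fabp5, with 15.5 ± 2.0 FPKM in stretched cells and 45.4 ± 0.469 FPKM in control cells (SD, n = 3 each; log2 fold change -1.49, limma adjusted p = 3.65e-05). Fabp1, Fabp2, Fabp6, Fabp7 and Fabp12 were listed at 0 in every library. Fabp3, Fabp4 and Fabp5 together summed to 90.2 ± 13.5 FPKM in stretched cells and 203 ± 30.4 FPKM in control cells.

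Of the long-chain acyl-CoA synthetases, Acsl1 and Acsl3 fell with Acsl4. Acsl1 averaged 3.64 ± 0.502 FPKM in stretched cells and 7.86 ± 0.858 FPKM in control cells, and Acsl3, which sits on nascent droplets, 8.07 ± 0.451 FPKM in stretched cells and 16.7 ± 0.673 FPKM in control cells (SD, n = 3 each; limma adjusted p = 0.00049 for Acsl1 and 0.00010 for Acsl3). Acsl5 was not called (17.9 ± 2.10 FPKM in stretched cells and 20.2 ± 1.02 FPKM in control cells), and Acsl6 was near 0. Acsl4 made up 36.8% to 49.2% of the family's summed FPKM in stretched libraries and 52.3% to 54.5% in control libraries.

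Plin3 and Cpt1c went the other way from Plin2 and Cpt1a, while Cpt1b, under the filter, was lower in every stretched library. Plin3, a perilipin that also binds endosomal cargo, was higher in stretched cells, at 37.3 ± 3.62 FPKM against 28.7 ± 4.03 FPKM in control cells (SD, n = 3 each; log2 fold change 0.37, limma adjusted p = 0.040), a call lost without stretched replicate 2 or 3 or control replicate 2 or 3 (limma adjusted p = 0.0656 to 0.122), without a filter (0.0749) and without trend (0.0502). Plin2 therefore formed 51.7% to 59.4% of perilipin FPKM in stretched libraries and 76.6% to 78.6% in control libraries, and Plin1, Plin4 and Plin5 stayed under 0.1 FPKM. Cpt1c, the brain-type family member with little oxidative activity, rose to 4.88 ± 0.637 FPKM in stretched cells, against 2.68 ± 0.394 FPKM in control cells (SD, n = 3 each; log2 fold change 0.67, limma adjusted p = 0.0032). The summed FPKM of Cpt1a, Cpt1b and Cpt1c was 13.0 ± 0.740 in stretched cells and 19.3 ± 2.04 in control cells.

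**Figure D3:**
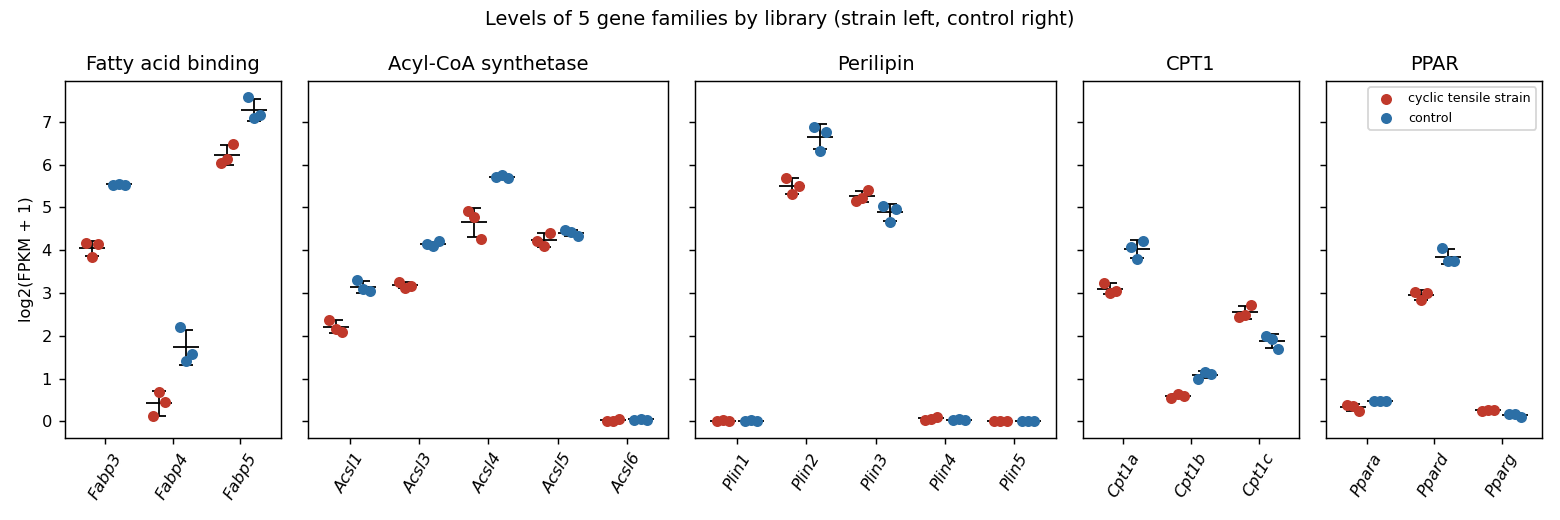
Levels on the log2(FPKM + 1) scale of fatty acid binding proteins, long-chain acyl-CoA synthetases, perilipins, CPT1 enzymes and PPAR receptors, with stretched libraries (red) left of control libraries (blue), means as bars and error bars of 1 SD. Fabp3, Fabp5, Acsl1, Acsl3, Acsl4, Plin2, Cpt1a and Ppard are lower in all stretched libraries, while Plin3 and Cpt1c are higher.

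Among 109 further tested genes of the pathway, arranged by role, 28 rose and 16 fell (25.7% and 14.7%, beside 16.4% and 19% of all tested genes), with a median log2 fold change of 0.09 beside -0.01 for all tested genes. Without control replicate 1 the rises numbered 17. No list was tested as a set.

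Of 12 tested genes of uptake and binding, 3 rose and 4 fell (25% and 33.3%, beside 16.4% and 19% of all tested genes, median log2 fold change -0.04). Lipg, the endothelial lipase of the Lpl family, fell to 0.417 ± 0.260 FPKM in stretched cells, against 4.77 ± 0.188 FPKM in control cells (log2 fold change -2.04, limma adjusted p = 3.57e-05). The transport protein gene Slc27a3 rose to 3.32 ± 1.29 FPKM in stretched cells, against 0.964 ± 0.294 FPKM in control cells (log2 fold change 1.11, limma adjusted p = 0.0037). The lipoprotein receptor Vldlr rose 1.5-fold (limma adjusted p = 0.018, and 0.0552 without stretched replicate 2). Slc27a3 and Lipg were under 1 FPKM on average in 1 of the groups and passed the filter through the other.

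Of 10 tested genes of acyl-CoA handling, 2 rose and 3 fell (20% and 30%, beside 16.4% and 19% of all tested genes, median log2 fold change -0.22). The falls named by rule were Acsl1 and Acsl3. The other fall, Acss2 (limma adjusted p = 0.048), held in only 5 of 14 alternatives. The peroxisomal thioesterase Acot8 rose 1.67-fold (limma adjusted p = 0.0067), and the synthetase Acsf2 rose 1.48-fold (limma adjusted p = 0.024), a call lost without stretched replicate 1, stretched replicate 3 or control replicate 1 (0.0522, 0.0617 and 0.0949). Without any of these 3 libraries the rises numbered 1, and without stretched replicate 3 the falls numbered 5.

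Of 20 tested genes of the droplet coat and triglyceride synthesis, 5 rose and 4 fell (median log2 fold change -0.03). Hilpda, a droplet protein induced by hypoxia that inhibits the lipase encoded by Pnpla2, fell with Plin2 to 11.7 ± 1.44 FPKM in stretched cells, against 25.1 ± 8.34 FPKM in control cells (log2 fold change -1.01, limma adjusted p = 0.0046). The acyltransferase Agpat5 fell to 17.1 ± 1.09 FPKM in stretched cells, against 23.4 ± 2.29 FPKM in control cells. Bscl2, which encodes seipin of the sites where droplets form, rose 1.99-fold to 19.9 ± 3.60 FPKM in stretched cells, against 9.98 ± 1.63 FPKM in control cells (limma adjusted p = 0.0016), and Gpam, the mitochondrial enzyme that starts triglyceride synthesis, rose 1.71-fold (limma adjusted p = 0.0024). Without stretched replicate 2, or without control replicate 2, 3 genes rose.

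Of 8 tested lipolysis genes, Mgll rose and Pnpla8 fell (12.5% each, beside 16.4% and 19% of all tested genes, median log2 fold change 0.11). Mgll, the monoglyceride lipase, stood at 2.26 ± 0.371 FPKM in stretched cells and 0.551 ± 0.117 FPKM in control cells (log2 fold change 1.07, limma adjusted p = 0.00027), and passed the filter through the stretched group. The phospholipase Pnpla8 fell to 11 ± 2.07 FPKM in stretched cells, against 17.9 ± 1.15 FPKM in control cells. The cofactors of the lipase encoded by Pnpla2 were not called: its activator Abhd5 had 9.93 ± 0.629 FPKM in stretched cells and 10.4 ± 1.12 FPKM in control cells, and its inhibitor G0s2 had 3.73 ± 1.40 FPKM in stretched cells and 6.88 ± 2.70 FPKM in control cells (SD, n = 3 each). Without stretched replicate 3 the rises numbered 2, and without control replicate 3 the falls numbered 2.

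Of 29 tested genes of mitochondrial oxidation, 9 rose and 1 fell (31% and 3.45%, beside 16.4% and 19% of all tested genes, median log2 fold change 0.13). The rises were Acat1, Hadh, Acaa2, Decr1, Hadhb, Etfdh, Oxct1, Acad10 and Cpt1c, the last with little oxidative activity. Acad10 passed the filter only through the stretched group. The calls of Hadhb, Etfdh and Oxct1 held in 8, 9 and 11 of 14 alternatives. Acat1, the mitochondrial acetoacetyl-CoA thiolase, rose to 11.8 ± 1.41 FPKM in stretched cells, against 6.65 ± 0.194 FPKM in control cells (limma adjusted p = 0.00090). Hadh, a short-chain enzyme of beta-oxidation, rose to 5.14 ± 0.896 FPKM in stretched cells, against 2.67 ± 0.295 FPKM in control cells (limma adjusted p = 0.0027). Acadl, the long-chain acyl-CoA dehydrogenase, was the fall, with 33.0 ± 3.61 FPKM in stretched cells and 49.2 ± 2.95 FPKM in control cells (limma adjusted p = 0.0032). Cpt2 and the carnitine carrier Slc25a20, the next steps of the shuttle after Cpt1a, were not called. Without control replicate 1 only 4 of the genes rose, and without control replicate 2 there were 2 falls.

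Of 14 tested peroxisomal genes, 7 rose and 1 fell (50% and 7.14%, beside 16.4% and 19% of all tested genes, median log2 fold change 0.33). Phyh, which starts alpha-oxidation of branched fatty acids, rose 2.77-fold to 21.9 ± 2.35 FPKM in stretched cells, against 7.89 ± 1.54 FPKM in control cells (limma adjusted p = 0.00018). Ech1, an enoyl-CoA isomerase of peroxisomes and mitochondria, rose 2.62-fold to 29.4 ± 5.51 FPKM in stretched cells, against 11.2 ± 1.09 FPKM in control cells (limma adjusted p = 0.00018). Abcd3, a peroxisomal fatty acid transporter, fell to 9.01 ± 0.431 FPKM in stretched cells, against 12.2 ± 0.130 FPKM in control cells (limma adjusted p = 0.0068).

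Of 17 tested regulators, 1 rose and 2 fell (5.88% and 11.8%, beside 16.4% and 19% of all tested genes, median log2 fold change -0.04). Ppard, the PPAR receptor with the highest level here, fell 1.99-fold to 6.74 ± 0.568 FPKM in stretched cells, against 13.4 ± 1.77 FPKM in control cells (log2 fold change -0.90, limma adjusted p = 0.00050). Angptl4, Plin2 and Cpt1a are known PPAR target genes in other cells. Here Angptl4 rose and Plin2 and Cpt1a fell, and a part of Ppard in these changes was not tested. Ppara and Pparg averaged under 0.4 FPKM in both groups. The corepressor Nrip1 fell (log2 fold change -0.40, limma adjusted p = 0.031) and Nr1h3, the liver X receptor alpha gene, rose (0.33, limma adjusted p = 0.034). Those calls held in 8 of 13 and 7 of 13 alternatives: Nrip1 was lost without stretched replicate 1 or 3 or control replicate 2 or 3 (limma adjusted p = 0.0561 to 0.0923) and with library totals made equal (0.075), and Nr1h3 without any stretched replicate or control replicate 1 or 3 (0.0568 to 0.132). Without stretched replicate 1 or control replicate 3 there was 1 fall.

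**Figure D4:**
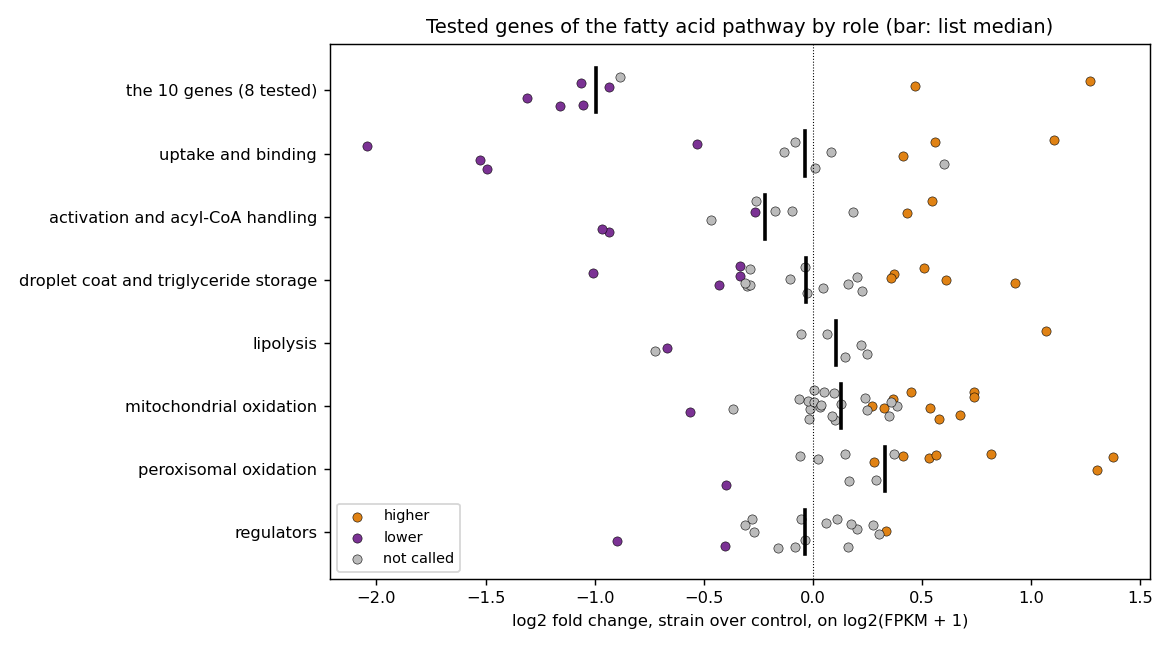
Log2 fold change on the log2(FPKM + 1) scale, stretched (strain) over control, of each tested gene of the 10 and of 7 lists by role, with a bar at each median. Orange points were called higher, purple lower and grey not called. Rises outnumber falls in mitochondrial oxidation (9 and 1) and peroxisomal oxidation (7 and 1), and 5 of the 8 tested genes of the top row were called lower.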

How the data were processed

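RNA of 6 libraries was sequenced, 3 of stretched and 3 of control cells. The authors deposited FPKM per gene symbol for 22601 rows. The unit was read from the values and the tools. Per the submitters' processing notes these include HISAT2 2.0.4, cutadapt 1.9.3, Cufflinks, DESeq and Cuffdiff 2.2.1, with no order or role. Those notes name hg19, a human build, although the symbols are rat ones, so no coordinates of the measured genes were used. The sources used here do not give strand, annotation or the treatment of shared reads. In 27 rows the symbol had become a date (0.191% to 0.232% of summed FPKM), and 1 row was misread in a control file. All were left out.

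FPKM keep no read totals, so depth is unknown and intervals for counting error could not be given. In low values (0.003 to 0.06 FPKM) at most 13.0% of genes shared a common ratio between libraries within 0.01 log2 units, too few to recover whole reads. No library was a copy of another.

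The 10180 genes averaging 1 FPKM or more over the 6 libraries were tested with limma 3.58.1 in R 4.3.3 on log2(FPKM + 1), stretched against control, with trend and robust moderation, two-sided. The fit was tested on simulated data. A fold is the ratio of the FPKM means, left out where a mean is under 1. With 3 against 3 an exact permutation test cannot go below p = 0.1, so none was used. Alternatives were pseudocounts of 0.1 and 0.5, no filter and a filter at 5 FPKM, quantile normalization, rescaling to equal totals, limma without trend, a replicate block and leaving out each library.

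The genes and the lists were chosen with earlier results of these data known. By rule, the text names the 10 genes, the 2 called genes of smallest adjusted p in each direction of each pathway list, and markers above the filter. Others were named after their values were seen. Not every gene picked by the rule is reported here.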

Additional observations from a re-analysis of the deposited data

How the results depend on the processing

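The 112 values that the alternatives gave for the 10 genes all kept their direction and, where the main fit tested the gene, their side of the threshold. Fabp4 and Pnpla2 were not tested at the filter of 5 FPKM. Cd36 and Lipe were tested only without a filter, so they had no main call to keep. The filters, the trend setting and the replicate block cannot alter a fold change, only its adjusted p. Of 313 such values for the named pathway genes, 298 kept their direction and their side of the threshold. The other 15 no longer passed, with 0 reversed, all 15 of them for Vldlr, Acsf2, Nr1h3 and Nrip1. The log2 fold change of Angptl4 ranged from 1.23 to 1.38, that of Lpl from 0.41 to 0.55, of Plin2 from -1.32 to -1.04 and of Pnpla2 from -1.75 to -0.24. Over all genes, the count called was 2375 to 3576 with a library left out, of which 1047 to 1528 were higher, and 1071 were higher with a filter at 5 FPKM. That filter left 6572 genes to test. In the pathway lists 17 to 26 genes were higher with a library left out, and 15 with the filter at 5 FPKM. That filter also left 3 rises in the droplet list and 4 in the peroxisomal list. With library totals made equal, 57.4% of all calls were higher, and with quantile normalization 55.5%, against 46.3% as deposited. The cause of the shift without control replicate 1 was not tested.

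Replicate numbers showed no pairing of the samples. The deviations of same-numbered libraries from their group means correlated at 0.033, 0.108 and -0.116, and those of differently numbered ones at -0.21 to 0.12. With 3 libraries per group and no label of replicate origin, this check cannot exclude pairing. With a replicate block 3116 genes were called, and the same 7 of the 10 genes passed, while the call of Nr1h3 was lost (limma adjusted p = 0.0647). Depth, which FPKM do not show, limits what can be said of Cd36, Lipe, Pnpla2, Fabp4 and the other pathway genes under the filter.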

Other observations

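Of 48 further pathway genes under the filter, 10 passed in the fit without one (limma adjusted p under 0.05), and no explanation was tested. The 48 include 16 genes at 0 in every library, which could not be fitted. Over all genes the same fit called 3768 of 16152, those above the filter included. The share among genes under the filter alone is not given. Under the filter FPKM rest on few fragments: Cideb was at 0 in control replicates 1 and 2, and Pnpla3 in stretched replicates 1 and 2. Depth is unknown, so how reliable the 10 differences are was not tested. Cidea, a droplet protein of fat cells, averaged 0.490 ± 0.343 FPKM in stretched cells and 1.30 ± 0.153 FPKM in control cells (SD, n = 3 each). Cpt1b, the muscle form of the enzyme that Cpt1a encodes, averaged 0.510 ± 0.038 FPKM in stretched cells and 1.12 ± 0.123 FPKM in control cells. Like Cpt1a, both were lower in stretched cells, as were Pnpla3 and the coactivator gene Ppargc1a at 0.044 ± 0.023 FPKM in stretched cells and 0.142 ± 0.021 FPKM in control cells. The 6 others were higher. Acot11 averaged 1.08 ± 0.290 FPKM in stretched cells and 0.432 ± 0.106 FPKM in control cells, Mogat2 0.476 ± 0.141 FPKM in stretched cells and 0.0400 ± 0.0169 FPKM in control cells, and Pparg 0.196 ± 0.018 FPKM in stretched cells and 0.105 ± 0.031 FPKM in control cells. Acss1, Acss3 and Cideb averaged 0.236, 0.240 and 0.165 FPKM in stretched cells and 0.0508, 0.0985 and 0.0165 FPKM in control cells.

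The ratio of Angptl4 to Plin2, which moved in opposite directions, was 0.558, 0.654 and 0.636 in stretched libraries and 0.0953, 0.138 and 0.0932 in control libraries. The ratio of Cpt1a to Cpt1c was 1.89, 1.53 and 1.30 in stretched libraries and 5.32, 4.59 and 7.85 in control libraries. In both cases the groups could not overlap, since the 1 gene of each pair was higher and the other lower in every stretched library. These ratios were chosen after the values were seen.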
